A study of Bos taurus with 20 samples.

Results

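Leukocyte and macrophage marker genes were described in the cell layers of the bovine antral follicle. The 10 genes were PTPRC, CD14, CD68, CD163, CSF1R, AIF1, CD3E, CD4, CD74 and TYROBP, chosen by gene name among the 22550 genes and transcripts of a custom bovine Agilent array. They had 28 of the 61325 non-control spots of the array, with 23 different probe sequences. Expression was measured on 20 one-colour arrays, with 4 arrays for each of the theca layer (TH), mural granulosa (GC), cumulus (CC), cumulus matured in vitro (IVM) for 4 h, and the oocyte, from 200 ng of total RNA labelled with Cy3. Follicles of 3 to 6 mm came from ovaries of slaughtered cattle. Apart from CC after IVM, which were taken from cumulus-oocyte complexes cultured for 4 h, the samples were immature and untreated. TH was the cell material scraped from the follicle wall after granulosa cells and complexes had been removed, so it was a layer and not a sorted cell type. No age, breed or number of animals per replicate was given in the sources used here. The p-values measure only the spread between the 4 samples within groups. That spread was pooled over all groups of a fit and moderated by the spread of all genes.

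As background, the theca lies outside the basement membrane of the follicle and carries its blood vessels, while GC and CC lie inside it without vessels. Macrophages and other leukocytes are known residents of the ovarian stroma and theca. PTPRC (CD45) is a tyrosine phosphatase on the surface of nucleated blood cells. CD14 is the co-receptor that hands bacterial lipopolysaccharide to TLR4. CSF1R is the receptor for the macrophage growth factors CSF1 and IL34, TYROBP is a membrane adaptor that signals for activating receptors of myeloid and natural killer cells, and AIF1 is an actin-binding protein of macrophages. CD68 is a glycoprotein of lysosomes that is abundant in macrophages, and CD163 takes up complexes of haemoglobin and haptoglobin. CD74 is the invariant chain that accompanies major histocompatibility complex (MHC) class II molecules. CD3E is a chain of the T cell receptor complex, and CD4 is the co-receptor of helper T cells.

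The probes are shown for the genes whose result depended on them, as the first 30 of the 60 bases of each, with the bases that lie in a run shared with another probe of the same gene in capitals. CSF1R lies on UMD 3.1 at chr7:63379475-63410968 (transcript CSF1R-201, with CSF1R-202 at chr7:63379480-63410973). Its probes 2, 3 and 4 cover nearly the same bases, so they were not independent measurements, and probe 1 has another sequence.
CSF1R probe 1: actgatttggtgattgaagttcccaagagc
CSF1R probe 2: ctcatCGTAACTAACAGTCACAAAGTGGAA
CSF1R probe 3: CGTAACTAACAGTCACAAAGTGGAATGTCC
CSF1R probe 4: AACTAACAGTCACAAAGTGGAATGTCCCTG
The probes of CD3E, at chr15:29441565-29452179, shared 57 of their 60 bases.
CD3E probe 1: CATGAATGTGCTAAATTCCTTGTCAGCTGA
CD3E probe 2: ctcCATGAATGTGCTAAATTCCTTGTCAGC
Those of CD68, at chr19:27921927-27923997, shared 59 bases, so that the gene was in effect read at 1 place.
CD68 probe 1: GATGAGGGAAAAGATGTTTATTAAATATGA
CD68 probe 2: gGATGAGGGAAAAGATGTTTATTAAATATG
The probes of AIF1, at chr23:27503183-27505457, had no such bases in common and, as given below, did not give the same values.
AIF1 probe 1: gagaggagagctggcagacagagaaggcac
AIF1 probe 2: agaagacaaaattgtgaaccagagccagac
The positions are those of the transcripts in the array files. The exon or untranslated region that each probe matches was not analysed here.

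Values are on a log2 scale on which each array's own 75th percentile of processed signal is 0, as the median over the spots of a gene, so 0 is a bright spot and about -5 is the limit of detection. Levels of different genes come from different probes and were not tested against one another. Sums over genes, given below as a description, weigh genes with bright probes more. A gene was counted as above background on an array when at least 1 of its spots was marked so by the scanner software, and the lowest level so marked was between -6.84 and -4.02 over the 20 arrays. From 49.3% to 68.8% of probes were above background, with the lowest share on oocyte replicate 2, and no spot was saturated on any array. Of the 4 theca steroid cell genes on the array, CYP17A1 (above background on the 4 TH arrays and on 1 other array), LHCGR and INSL3 were highest in TH, INSL3 with 8.42 against 5.29 in GC, while STAR was highest in oocytes (3.43 against 2.27 in TH). Oocyte markers such as NLRP5 were highest in oocytes (6.33 against -3.34 in CC). Replicates 1 and 2 of TH, GC, CC and oocytes shared a slide and replicates 3 and 4 another, and the 4 arrays of CC after IVM were on a slide of their own, so that for these the slide and the maturation cannot be told apart.

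Of the 10 genes, 8 were above background on all 4 TH arrays. CD163 and CD4 were not, and although both stayed in the fit and in the counts below, their differences rest on values mostly below background. Against GC, 6 genes were higher in TH (PTPRC, CSF1R, AIF1, CD3E, CD74 and TYROBP) and none was lower at an adjusted p under 0.05 by limma, where 11.8% of all genes were called higher and 14.5% lower. Against CC, 7 were higher, the same 6 and CD14, and none was lower, where 14.4% of all genes were higher and 17.4% lower. Against CC after IVM, the 6 were higher and CD68 was lower, where 18.5% and 25.3% of all genes were called. With the scanner's mean signal corrected by normexp these counts were 5 higher and 3 lower, and with the table deposited for the series 6 higher and 2 lower. Of all genes, 16855 were called in this comparison with normexp, beside 9857 in the main fit. With the deposited table, too, more of all genes were called than in the main fit. Against oocytes, 7 were higher (PTPRC, CD14, CD68, CD163, AIF1, CD74 and TYROBP) and CSF1R was lower, where 32.1% and 32.5% of all genes were called. The call of CD163 was made between groups in which it was above background on 1 and 0 arrays. The 75th percentile of signal, by which each array was scaled, had a median of 1746 units in oocytes and 560 in TH. The lowest level above background lay between -6.84 and -4.02 on oocyte arrays and between -5.45 and -5.15 on TH arrays. The part of this scaling in differences from oocytes of genes below background there was not tested. The median difference over the 10 genes was 1.97 against GC, 3.13 against CC, 1.96 against CC after IVM and 3.79 against oocytes on the log2 scale, beside -0.22, -0.0004, -0.40 and 0.42 over all genes. In the F-test over TH, GC, CC and oocytes, 9 of the 10 genes differed, where 71.3% of all genes did. With the slide as a block, 7, 7 and 8 genes were called against GC, CC and oocytes. Within the first slide alone the counts were 5, 6 and 7, and within the other slide 4, 6 and 9. Over all genes, 2264, 3324 and 11629 were called within the first slide, beside 5938, 7164 and 14578 in the main fit. Within the other slide, fewer of all genes than in the main fit were called against GC and CC, and more against oocytes. These comparisons share the TH arrays. In whole layers, fewer cells of a type and less RNA per cell cannot be told apart.

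**Figure D1:**
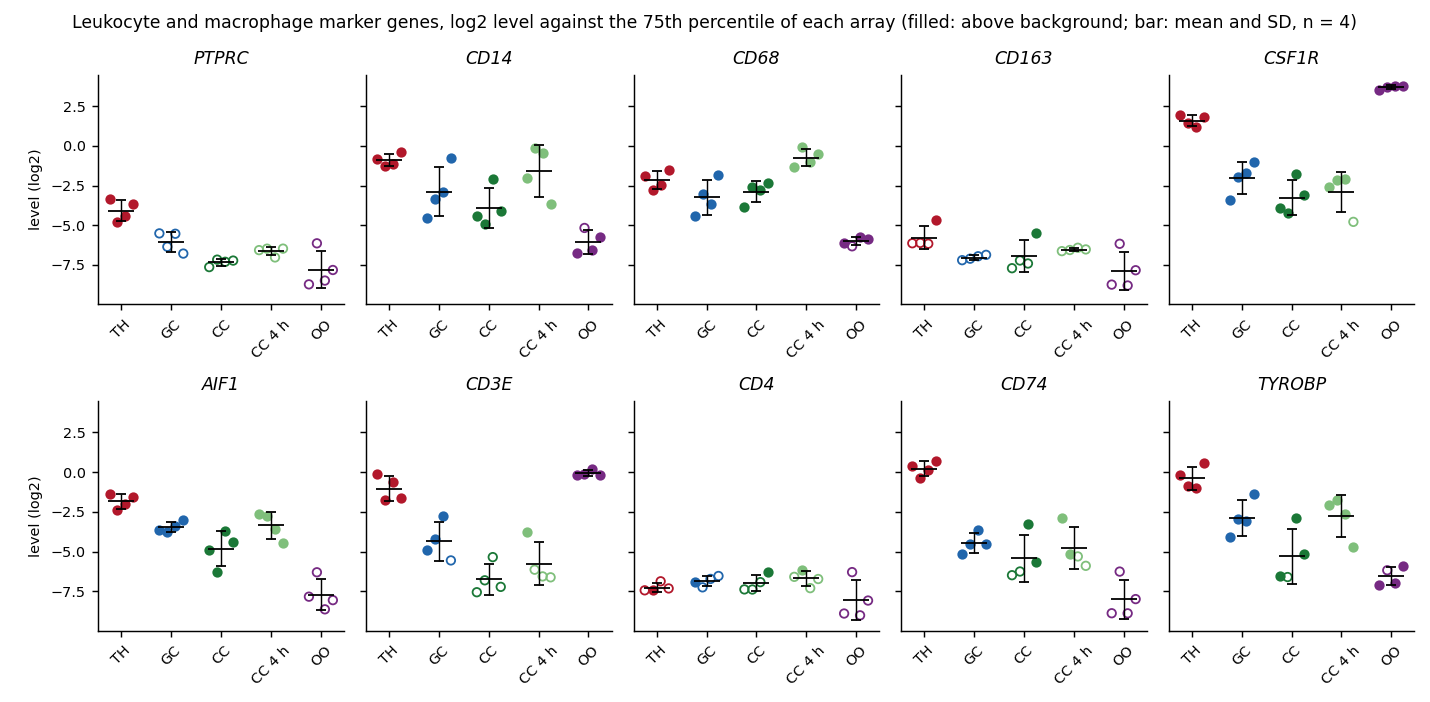
Level of each gene on each array (log2, relative to the 75th percentile of that array), with the mean and SD of the 4 arrays of a group as bars. Filled points were above background and open points were not. TH lay above GC and CC in most panels, while CSF1R was highest in oocytes (3.70) and CD68 in CC after IVM (-0.74).

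PTPRC, the marker shared by nucleated blood cells, was above background on the 4 TH arrays and on none of the other 16. Its levels in TH were -3.35, -4.82, -4.43 and -3.70 in replicates 1 to 4. The mean was -4.07 ± 0.67 (SD, n = 4), and the other groups had means between -7.79 and -6.05, under the detection limit. No TH array overlapped with them. Since the other groups had no level above background, only bounds can be given. In each, the mean of TH was set against, per array, the higher of the lowest signal above background and the measured value. By these bounds PTPRC was at least 1.94-fold higher in TH than in GC and at least 2.53-fold higher than in CC. It was at least 1.59-fold higher than in CC after IVM and at least 3.55-fold higher than in oocytes. The limma test was made on the measured values, with differences of 1.98 from GC (adjusted p = 0.00692) and 3.26 from CC (adjusted p = 8.44e-05). Those values were below background in GC and CC, and the bounds themselves were not tested. These bounds, and those given below for other genes, hold for the processed signal only. With the mean signal corrected by normexp, the difference of PTPRC was 0.18 from GC (adjusted p = 0.456) and 0.023 from CC after IVM (adjusted p = 0.917), neither of which passed the test. In the table deposited for the series it was 0.56 from GC (adjusted p = 0.0143), and within the first slide alone the calls against GC (adjusted p = 0.308) and CC (adjusted p = 0.0626) were lost. The signal came mostly from probe 2 (-3.25 in TH, above background on 4 arrays), as probe 1 was above background on 2 TH arrays (-4.90).

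CD74, the MHC class II invariant chain, had the largest difference of the 10 genes between TH and GC. Its levels in TH were 0.40, -0.36, 0.11 and 0.71, all above those of every other array. In GC they were -5.15, -4.52, -3.67 and -4.53. TH was thus higher than GC by 4.68 ± 0.67 (SE) on the log2 scale, or 25.7-fold (adjusted p = 7.46e-05). In CC and in CC after IVM CD74 was above background on 2 arrays each, with means of -5.43 ± 1.46 and -4.81 ± 1.32 (SD, n = 4), and TH was higher by 5.64 and 5.02. In oocytes it was not above background on any array, and TH was at least 69.4-fold higher. With normexp and the deposited table, CD74 was higher in TH than in oocytes by 5.10 and 5.31 (log2), less than this bound. Its probes, which shared 46 bases, had TH means of 0.27 and 0.14.

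Many genes of the class II pathway that CD74 serves were also higher in TH. Of the 17 genes of the MHC class II pathway on the array, 11 were higher in TH than in GC and 1 lower. Against CC, 9 were higher and none lower, against CC after IVM 10 and 1, and against oocytes 10 and 2. Of all genes, 11.8%, 14.4%, 18.5% and 32.1% were called higher in TH in these comparisons, in this order. Those called lower were 14.5%, 17.4%, 25.3% and 32.5%. BOLA-DRA, a class II alpha chain, had a mean of 3.76 in TH against -0.86 in GC, -2.65 in CC and -0.78 in CC after IVM, and was not above background in oocytes, where TH was at least 813-fold higher. The beta chain BOLA-DRB3 was higher in TH than in GC by 4.70 ± 0.73 (SE, adjusted p = 0.000159). CTSS, the protease that degrades the invariant chain, was higher by 3.39 ± 0.60 (adjusted p = 0.000508). RFX5, a transcription factor of class II genes, was in contrast highest in oocytes, where it exceeded TH by 2.79, and the differences from GC and CC did not pass the test.

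CD14 had an SD of 0.37 in TH, 1.56 in GC and 1.26 in CC (n = 4 each). Its levels in TH were -0.83, -1.24, -1.14 and -0.41. In GC they were -4.52, -3.33, -2.88 and -0.77, so that GC replicate 4 lay within the range of TH. The difference of TH from GC, 1.97 ± 0.70 (SE), did not pass the test (adjusted p = 0.0508, 95% interval of the difference 0.47 to 3.47). It passed with the replicate number as a block (adjusted p = 0.0452) and without GC replicate 4 (2.67, adjusted p = 0.00461). TH was higher than CC by 2.99 ± 0.70 (adjusted p = 0.00362) and than oocytes by 5.15. In CC after IVM the levels were -2.02, -0.13, -0.46 and -3.68, on both sides of TH, and the difference was 0.67 ± 0.78 (95% interval -0.97 to 2.31). Oocytes had CD14 above background by probe 1 only, on 3 arrays, so the difference of 5.15 rests partly on signal below background. Probe 1 had means of -2.035 in TH and -5.034 in oocytes. With normexp and the deposited table, CD14 was higher in TH than in oocytes by 3.39 and 3.32. TLR4, its signalling partner, was higher in TH than in GC by 3.53 ± 0.57 (adjusted p = 0.000232). LBP, the serum protein that brings lipopolysaccharide to CD14, was not above background on any TH array and was in CC at -2.97.

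TYROBP, the myeloid adaptor, had levels in TH of -0.21, -0.90, -1.02 and 0.58, above every other array. In GC they were -4.11, -2.97, -3.09 and -1.39, and TH was higher by 2.50 ± 0.73 (SE), or 5.67-fold (adjusted p = 0.0189). The call was lost without TH replicate 4 (adjusted p = 0.059) or GC replicate 1 (adjusted p = 0.0669) and within the second slide alone (adjusted p = 0.252). It was the gene with the widest spread in CC, where replicate 3 was at -2.88 and the others between -6.61 and -5.16, some of them around the detection limit. TH exceeded CC by 4.90 ± 0.73 (adjusted p = 7.86e-05), CC after IVM by 2.40 ± 0.76 (adjusted p = 0.015), and oocytes by 6.15 ± 0.73. The call against CC after IVM was lost without TH replicate 4 (adjusted p = 0.0512) or IVM replicate 4 (adjusted p = 0.0682). In oocytes TYROBP was around the detection limit (mean of -6.54). With normexp and the deposited table, TH was higher than oocytes by 4.08 and 4.09.

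AIF1 was -1.37, -2.40, -1.99 and -1.59 in TH and -3.62, -3.74, -3.41 and -3.04 in GC. These ranges did not overlap, and TH was higher by 1.61 ± 0.51 (SE, adjusted p = 0.0297). The call was lost in 8 of 23 settings, namely the replicate number as a block (adjusted p = 0.0535), the first slide alone (adjusted p = 0.186), and the fits without TH replicate 1, 3 or 4 or GC replicate 1, 2 or 3 (adjusted p of 0.0509 to 0.0823). TH was higher than CC by 2.99 (adjusted p = 0.000292) and than CC after IVM by 1.52 (adjusted p = 0.0245), a call lost without TH replicate 1 or 4 or IVM replicate 3 or 4 (adjusted p of 0.052 to 0.0976). In oocytes AIF1 was not above background, and TH was at least 16.7-fold higher. With normexp and the deposited table, TH was higher than oocytes by 3.61 and 3.52 (log2), less than this bound. The gene value lies between sequences that responded very differently. Probe 2 had means of 0.78 in TH and -1.58 in GC, with -3.96 for CC, -1.92 for CC after IVM and -7.83 for oocytes. Probe 1 was near the detection limit throughout, with -4.54 in TH and -5.49 in GC, where it was above background on 1 array.

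CSF1R, the receptor for CSF1 and IL34, was higher in TH than in GC and CC, but its highest level was in oocytes. In TH the levels were 1.97, 1.42, 1.19 and 1.81. In oocytes they were 3.49, 3.74, 3.77 and 3.79, and no array of another group reached them. In GC (-3.44, -1.97, -1.70 and -1.03) and in CC (-3.94, -4.21, -1.77 and -3.09) every array was below TH. TH was higher than GC by 3.63 ± 0.51 (SE), or 12.4-fold (adjusted p = 5.98e-05), than CC by 4.85 ± 0.51, and than CC after IVM by 4.50 ± 0.58. It was lower than oocytes by 2.10 ± 0.51 (difference -2.10, 95% interval -3.18 to -1.02, adjusted p = 0.00169). Oocytes exceeded GC by 5.73 (53.1-fold, adjusted p = 5.65e-08) and CC by 6.95 (adjusted p = 5.42e-09). Of all 10 genes, CSF1R and CD3E alone were called higher in oocytes than in GC and in CC, where 30.7% and 31.8% of all genes were higher in oocytes.

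The high value of CSF1R in oocytes did not depend on the overlapping probes printed above. Probe 1, which has a sequence of its own, was above background on 4 TH arrays and 4 oocyte arrays and on none of the other 12, with means of -2.39 in TH and 0.04 in oocytes. The other probes had means of 3.69 to 3.79 in oocytes and 1.58 to 1.64 in TH. In both cases oocytes were highest and TH next. CC, which surround the oocyte, had CSF1R at -3.25 ± 1.10 (SD, n = 4).

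**Figure D2:**
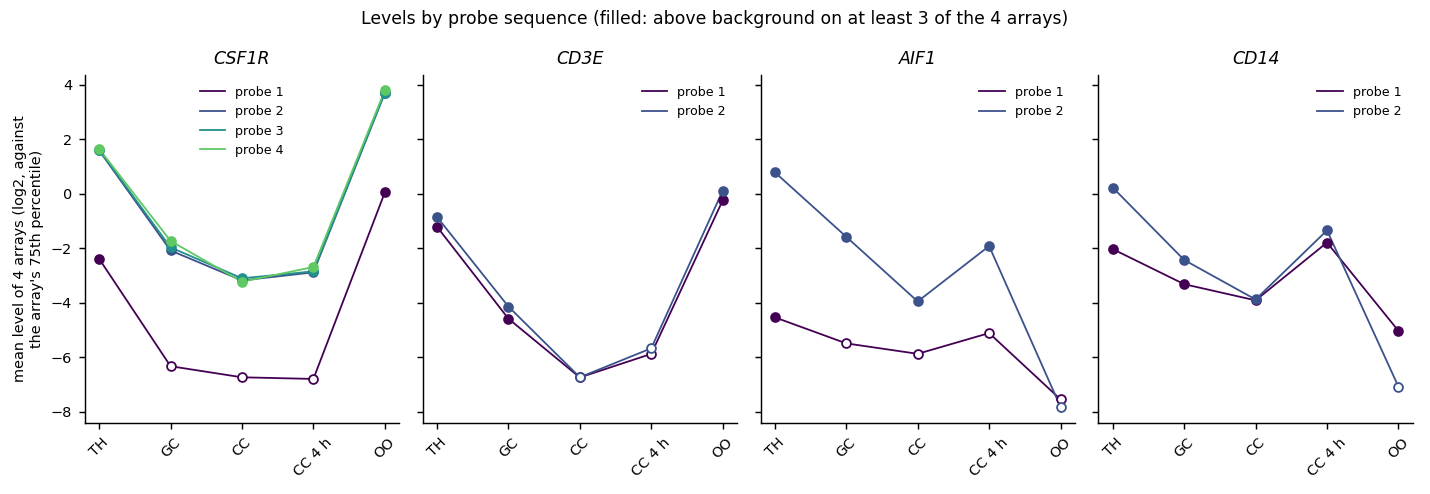
Mean level of the 4 arrays of each group (log2, relative to the 75th percentile of the array) by probe sequence for CSF1R, CD3E, AIF1 and CD14. Filled points were above background on 3 or 4 arrays of the group. The lone probe 1 of CSF1R had the same order of TH and oocytes as the 3 overlapping probes, whereas the AIF1 probes lay far apart in TH (-4.54 and 0.78).

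CD3E, of the T cell receptor complex, was the other gene with a high value in oocytes. The levels were -0.18, -0.14, 0.20 and -0.16 in oocytes and -0.14, -1.73, -0.64 and -1.63 in TH. These ranges met, and the difference of -0.96 ± 0.57 (SE, 95% interval -2.17 to 0.24) did not pass the test (adjusted p = 0.149). It did pass, lower in TH, with the table deposited for the series (-1.45, adjusted p = 6.71e-05) and with normexp (-0.83, adjusted p = 0.00792). GC had -4.91, -4.23, -2.76 and -5.56, above background on 3 arrays, and TH was higher by 3.33 ± 0.57 (adjusted p = 0.000368). In CC the gene was not above background on any array. There TH was at least 20.8-fold and oocytes at least 40.5-fold higher. With normexp and the deposited table, TH was higher than CC by 2.31 and 2.89 (log2), less than this bound. Since the probes of CD3E overlapped almost fully, its value in oocytes rests on 1 stretch of sequence. What that stretch may match in oocyte RNA was not tested.

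CD68, in contrast, had its highest level in CC after IVM. The levels there were -1.32, -0.08, -1.03 and -0.52. In TH they were -1.90, -2.78, -2.46 and -1.51, below all of these, and in CC -3.84, -2.57, -2.79 and -2.34. TH was lower than CC after IVM by 1.43 (difference -1.43 ± 0.45, SE, adjusted p = 0.0152), a call lost without TH replicate 2 (adjusted p = 0.054) or IVM replicate 2 (adjusted p = 0.0539). TH did not pass the test against GC (1.07, 95% interval 0.07 to 2.06, adjusted p = 0.116) or against CC (0.72, 95% interval -0.28 to 1.72, adjusted p = 0.297). It was higher than oocytes by 3.85 ± 0.47 (adjusted p = 2.2e-06).

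CD163 was above background on TH replicate 4 (level -4.70), by probe 2, and on CC replicate 4 (-5.48), by probe 1, and on no other array. CD4 was above background on 1 array each of TH, GC, CC and CC after IVM and on none of the oocytes, each time by 1 of its 3 sequences. Neither the scavenger receptor of macrophages nor the co-receptor of helper T cells could therefore be described at this sensitivity, and nothing follows from it about their presence.

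**Figure D3:**
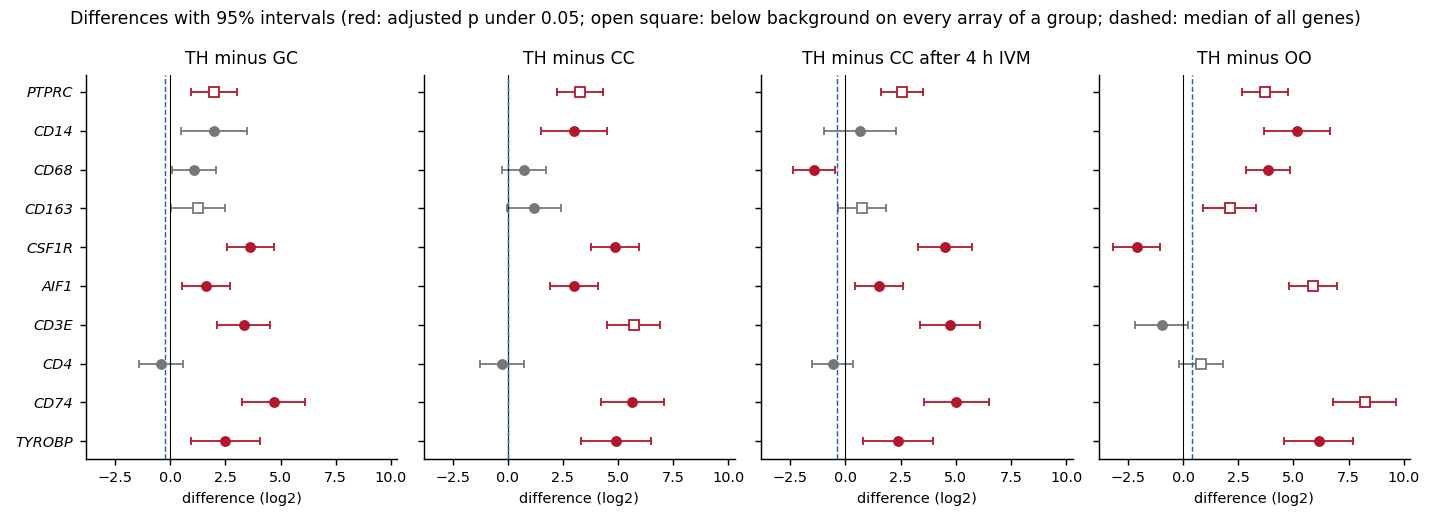
Difference of TH from each other group for the 10 genes (log2), with 95% intervals from the fit across all genes. Red points passed an adjusted p of 0.05, open squares mark genes that were below background on every array of a group, and the dashed line is the median of all genes. CSF1R lay to the left of 0 against oocytes only (-2.10) and CD68 against CC after IVM only (-1.43).

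After 4 h of IVM, 4 of the 10 genes were higher in CC than before (CD14, CD68, AIF1 and TYROBP) and none was lower, where 20.2% of all genes were called higher and 15.6% lower. CD68 rose by 2.15 ± 0.45 (SE), or 4.44-fold (adjusted p = 0.00102), and no array of CC overlapped with those after IVM. TYROBP rose by 2.50 ± 0.76 (adjusted p = 0.0148), CD14 by 2.33 ± 0.78 (adjusted p = 0.0265) and AIF1 by 1.47 ± 0.52 (adjusted p = 0.035), and in each of these the groups overlapped. For CD14, CC replicate 3 (-2.08) was above IVM replicate 4 (-3.68). The count of 4 fell to 1, CD68, when CC replicate 1, CC replicate 2 or IVM replicate 2 was left out. CSF1R (0.35, 95% interval -0.87 to 1.57) and CD74 (0.62, 95% interval -0.86 to 2.10) did not pass the test. Of the 26 macrophage and monocyte genes described below, 9 were higher after IVM and 1 lower. Other lists had such genes too. Of 10 mast cell and granulocyte genes 6 were higher and none lower, and of 9 B and plasma cell genes 3 and none. It was 5 and 2 of 24 T and NK cell genes and 4 and 1 of 17 pan-leukocyte genes. Of 17 class II pathway genes 4 were higher and 2 lower, and of 15 partners of the members 6 and 5. The median over the 10 leukocyte and macrophage marker genes was 0.83, beside 0.37 over all genes. The 75th percentile of signal, by which each array was scaled, had a median of 333 units after IVM and 585 in CC, and its part in these differences was not tested.

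Some replicates were high or low in most of the genes at once. Among the 8 genes measured in TH, replicates 1 and 4 were each highest in 4, and replicate 2 was lowest in 6. In GC, replicate 4 was highest in 5 of 7. In CC, replicate 3 was highest in 4 of 5, and after IVM replicate 4 was lowest in 4 of 5. The summed level of the 10 genes, in multiples of the 75th percentile of the array, was 5.10 to 8.52 in TH and 0.42 to 1.95 in GC, with 0.26 to 1.03 for CC and 0.96 to 2.61 for CC after IVM. In oocytes it was 12.2 to 14.8, and 5 of the 10 genes were not above background there. Most of the oocyte sum came from CSF1R (mean of 3.70 on the log2 scale), with CD3E next (-0.07). Over the 20 arrays the closest pairs were CD14 with TYROBP (Pearson r of 0.93), CSF1R with CD3E (0.93) and AIF1 with TYROBP (0.92), as a description in which the arrays of a group share their cell type. CSF1R correlated with CD68 at -0.59.

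The genes whose levels over the 20 arrays were most like those of a member were found among genes above background on at least 3 arrays of a group. For PTPRC they were GIMAP7, PLD4 and SH2D1A (r of 0.98, 0.96 and 0.96), although PTPRC itself was above background on 4 arrays. For AIF1 they were CD48, CTSS and FOLR2 (0.97 each), for CD14 VSIG4, SAMSN1 and CD53 (0.96, 0.95 and 0.94) and for TYROBP CD48, NKG7 and a transcript without a symbol (0.96 each). For CSF1R they were ADCY7, EFEMP1 and PID1 (0.98 each) and for CD3E CD52, GLUL and LCP2 (0.98, 0.96 and 0.96). For CD68 they were PEA15, NDRG1 and MBD2 (0.97, 0.96 and 0.96). For CD74 they were a transcript without a symbol, LY9 and IFI47 (0.97, 0.96 and 0.96).

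Other genes of the same cell types were counted from lists chosen by name. The shares of all genes called in each comparison are those given above with the 10 genes. Of 26 macrophage and monocyte genes on the array, 18 were higher in TH than in GC, 19 than in CC, 18 than in CC after IVM and 20 than in oocytes, with 1 lower in the last. Their median difference from GC was 2.17. LYVE1, a hyaluronan receptor of resident macrophages and lymphatic endothelium, had means of 0.22 in TH and -4.82 in GC, a difference of 5.04 ± 0.43 (SE, adjusted p = 5.23e-07). FOLR2, a folate receptor of macrophages, was higher in TH than in GC by 3.39 ± 0.76 (adjusted p = 0.00351) and at least 301-fold higher than in oocytes. Of 17 pan-leukocyte genes, 10 were higher than in GC, 12 than in CC, 11 than in CC after IVM and 13 than in oocytes, with 1 lower in the last. ARHGDIB, a regulator of small GTPases in blood cells, was higher in TH than in CC by 7.05 ± 0.61 (adjusted p = 3.14e-07), and CORO1A, an actin regulator of leukocytes, by 4.86 ± 0.48 (adjusted p = 1.07e-06). CD48, an adhesion molecule that was above background on 2 of the 4 CC arrays, was higher than in CC by 5.13 ± 0.73 (adjusted p = 4.8e-05).

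Genes of lymphoid cells and mast cells were counted in the same way. Of 24 T and NK cell genes, 8 were higher in TH than in GC and 1 lower, 12 higher than in CC and 1 lower, and 12 higher than in oocytes and 6 lower. Their median difference from GC was 0.61, beside -0.22 over all genes. NKG7, a granule protein of cytotoxic cells, was higher in TH than in GC by 2.40 ± 0.56 (adjusted p = 0.00429). CD8A, the co-receptor of cytotoxic T cells, above background on 2 of the 4 GC arrays, was higher by 2.68 ± 0.71 (adjusted p = 0.0103). TCF7, a transcription factor of T cells that other tissues also use, was lower in TH than in GC (difference -1.23 ± 0.20, adjusted p = 0.000269) and lower than in oocytes (-3.26). Of 9 B and plasma cell genes, 2 were higher than in GC and none lower, and 4 were not above background on any TH array. The median difference of these genes from GC was -0.12. BLNK, a B cell adaptor that macrophages also use, passed the test against GC (adjusted p = 0.017), but was above background there on 1 array only, so no fold is given, while CD79A, a chain of the B cell receptor, was at -3.70 in TH and -3.61 in GC. The B cell factor PAX5 was above background on 1 TH array and on every array of GC and CC. Of 10 mast cell and granulocyte genes, 3 were higher than in GC, all of them genes of mast cells and basophils, and none was lower. Against CC after IVM, 3 were higher and 2 lower. The median differences of this list were -0.13 from GC and -0.43 from CC after IVM, beside -0.22 and -0.40 over all genes. The protease CPA3 and the IgE receptor chain FCER1A were above background on the 4 TH arrays (means of -2.76 and -2.80) and on none of the other 16, and were at least 4.82-fold and 4.70-fold higher in TH than in GC. The histidine decarboxylase HDC was higher by 2.27 ± 0.40 (adjusted p = 0.000469).

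**Figure D4:**
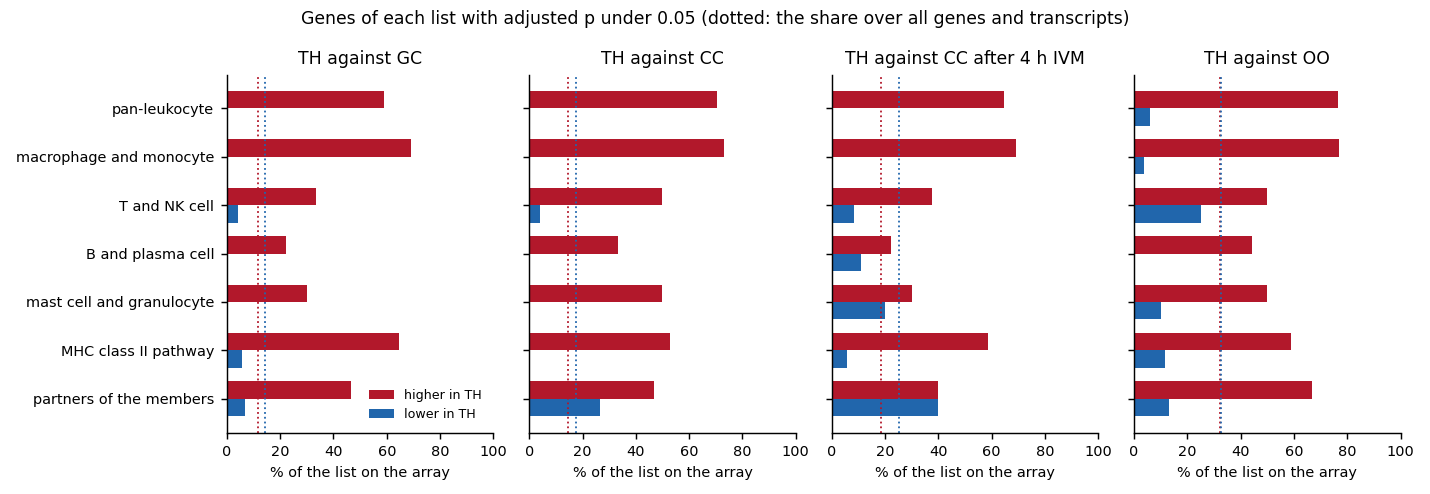
Share of each gene list that was called higher (red) or lower (blue) in TH at an adjusted p of 0.05, in % of the genes of the list on the array. Dotted lines mark the share over all 22550 genes and transcripts. Of the macrophage and monocyte genes, 18 of 26 were higher in TH than in GC, of the B and plasma cell genes 2 of 9.

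Of 15 ligands, co-receptors and signalling partners of the 10 genes, 7 were higher in TH than in GC and 1 lower, where 11.8% and 14.5% of all genes were called. Against CC after IVM 6 were higher and 6 lower, where 18.5% and 25.3% were called. The kinase LYN had means of 1.01 in TH and 0.41 in oocytes, against -1.90 in GC and -4.22 in CC. CXCR4, a chemokine receptor that pairs with CD74 in binding MIF, was higher in TH than in GC by 3.26 ± 0.35 (adjusted p = 4.44e-06) but lower than in CC after IVM (difference -1.71, adjusted p = 0.00211).

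Markers of several other cell types moved with the same contrast. The summed level of 6 fibroblast and stroma genes was 236 to 283 in TH and 7.61 to 34.0 in GC, and that of 7 endothelial genes 5.49 to 9.25 in TH and 0.19 to 0.57 in GC. CDH5, the junction protein of endothelium, was above background on 1 TH array only, and VWF, made by endothelium and platelets, was also found in oocytes (-0.59). TEK, another of the endothelial genes, was higher in oocytes (1.33) than in TH (0.46). The endothelial genes summed to 2.94 to 4.46 in oocytes. The 6 pericyte and smooth muscle genes summed to 188 to 213 in TH and 7.37 to 21.9 in GC. The 4 erythrocyte genes on the array did not follow this order, as they summed to 11.8 to 23.7 in TH, 14.5 to 29.2 in GC and 24.9 to 47.8 in CC. HBA was highest in CC (5.22 against 4.03 in TH) and AHSP in GC, while HBB was highest in TH, at a level around the detection limit (-5.07). The granulosa and cumulus genes summed to 150 to 269 in TH and 352 to 900 in GC. Their parts in the differences of the leukocyte genes were not tested. Within GC, replicate 4 had the highest sum of leukocyte genes and the lowest of endothelial genes (0.19), and replicate 1 the lowest of leukocyte and of fibroblast genes. Within TH, replicate 4, which had the highest sum of leukocyte genes, had the lowest sum of steroid cell genes (245, against up to 471 in replicate 1).

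**Figure D5:**
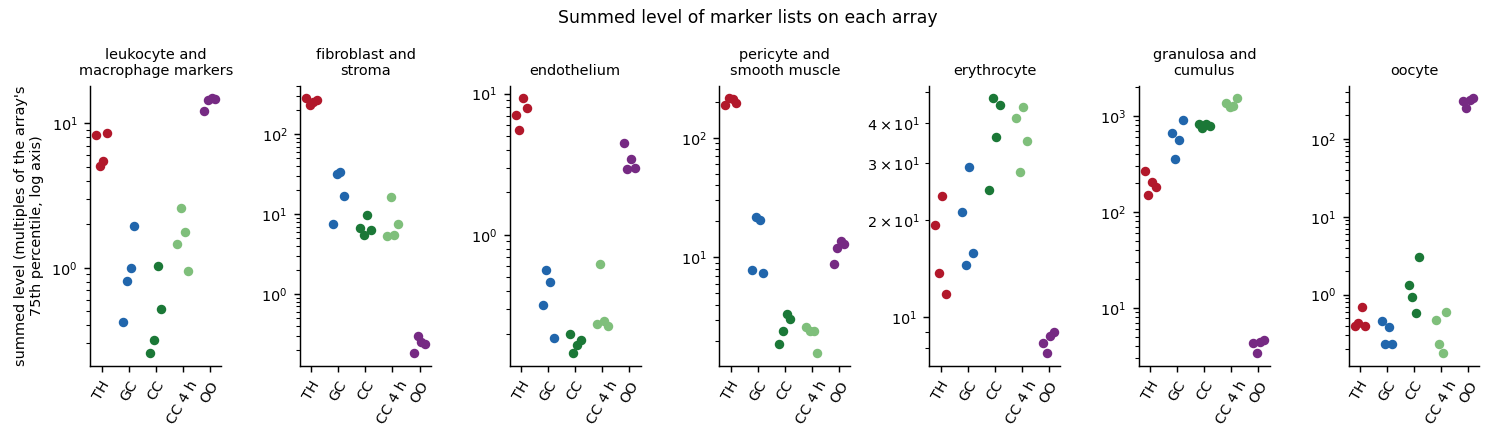
Summed level of each marker list on each array, in multiples of the 75th percentile of the array, on a log axis. Each point is 1 array. TH was highest for leukocyte genes among the somatic groups, and for fibroblast, endothelial and pericyte genes. The leukocyte sum of oocytes was 12.2 to 14.8.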

How the data were processed

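Total RNA of the 20 samples was labelled with Cy3 and hybridized to a custom bovine array by the authors, who scanned it and extracted spot values with Agilent Feature Extraction 10.7.3.1 (probes annotated on UMD 3.1). The deposited intensity of each spot is a processed signal, background-subtracted and not normalized between arrays, given with mean signal, local background, and marks for outliers and for signal well above background. A deposited table of log2 values of all arrays was used as an alternative, and it equals the log2 median signal minus the median of the array within 5e-09.

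These intensities were put on a log2 scale, each of the 20 arrays was shifted by its 75th percentile over the 61325 non-control probes, outlier spots were left out, and the median over the spots of a gene was used. Of the probes, 50630 were named in the files, and 734 of the 9779 without a name were named by RefSeq accession. Models were fitted with limma 3.58.1 in R 4.3.3 (statmod 1.5.0, and data.table at 1.17.8), on the 16 arrays without IVM for pairs of cell types and the F-test, and on 20 arrays for pairs with CC after IVM. Benjamini-Hochberg adjustment was made over 22550 genes, with a threshold of 0.05, and the fits were tested on simulated data. Further steps used Python 3.11.15 (scipy 1.17.1, numpy 2.4.6, matplotlib 3.10.9, pandas 2.3.3). The number of arrays limits the precision.

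The 10 genes and all lists were chosen with earlier results of these data known. All 10 were described. Of each list, the text names at most 3 genes with the largest difference of TH from the mean of GC, CC and oocytes among those past the threshold against any group and above background on the 4 TH arrays, with 1 in the other direction, and for each of the 10 the 3 genes with the highest Pearson r. Some genes that this rule gives are not reported here. The likeness of CD163 and CD4, which were below background on most arrays, was left out. The alternatives were quantile, median and detected-probe scaling, normexp (offset 50), the deposited table, the mean and the brightest probe, a filter on dim genes, other sets of arrays, replicate and slide blocks, single slides, arrayWeights, a trended robust variance, an analysis of variance per gene, and leaving out each array. The slide as a random block was added after the data were seen. Same-numbered TH and GC samples deviated together in all 4 pairs (correlations of 0.125 to 0.372 over genes), whereas no other pair of groups had all 4 correlations over 0.1. The labels do not say what a number shares, so calls that change with the number as a block are given for TH against GC.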

Additional observations from a re-analysis of the deposited data

Results flagged for a closer look

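In 39 groups of 4 arrays tested, 4 arrays lay far from the other arrays of their group, and such a gap is met by chance in about 1 of 20 groups. CD163 was at -4.70 on TH replicate 4 and between -6.17 and -6.12 on the other TH arrays, where it was below background. CSF1R was at 3.49 on oocyte replicate 1 and between 3.74 and 3.79 on the other oocyte arrays, a narrow range. CD3E was at -3.76 on replicate 1 of CC after IVM and between -6.63 and -6.15 on the others, which were below background. CD3E was at 0.20 on oocyte replicate 3 and between -0.19 and -0.14 on the others.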

How the results depend on the processing

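The number of the 10 genes called was 6 of 10 against GC (6 to 8 under other settings of all arrays, 4 to 8 when 1 array was left out), 7 against CC (7 to 8, and 7 to 8), 8 against oocytes (7 to 10, and 8 to 9), 7 against CC after IVM (7 to 8, and 5 to 7) and 9 in the F-test (8 to 10, and 8 to 10). Within single slides, of 2 arrays a group, it was 5 and 4 against GC, 6 and 6 against CC, 7 and 9 against oocytes, and 7 and 10 in the F-test. For CC after IVM against CC it was 4, but 9 with normexp, 1 with arrayWeights, and 1 to 4 when 1 array was left out, and the cause was not tested. Of all genes, 8078 were called in this comparison in the main fit and 16118 with normexp. With arrayWeights more of all genes were called than in the main fit, although fewer of the 10 were. Of 825 recomputed differences, 765 kept their direction and side of the threshold, 43 lost the call, 15 gained it and 2 reversed. Those were CD14 in TH against CC after IVM without IVM replicate 4 (-0.0369, with a range up to 1.15 as 1 array was left out) and CSF1R in CC after IVM against CC with arrayWeights (-0.38), neither of them called. CD14 in TH against GC passed in 11 of 23 settings. CD68 after IVM passed in all 21. The median difference of all genes lay between -0.04 and 0.73 in TH against oocytes and between 0.01 and 0.39 in CC after IVM against CC under the other scalings, and was 1.16 and 0.57 with normexp. None of these turned a called direction of the 10 genes.

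With the replicate number as a block (replicate block), 6, 7, 8, 7 and 3 genes were called in these comparisons, in the order given with CC after IVM against CC last, and 9 in the F-test. It lost AIF1 and gained CD14 in TH against GC, lost AIF1 in CC after IVM against CC (adjusted p = 0.0531), and changed no other call of these differences. The slide as a random block left 7 and 4 genes for the comparisons with CC after IVM. Detection limits what can be said of CD163, CD4 and, outside TH, PTPRC.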
